A study of Macaca mulatta with 81 samples.

Results

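The genes described here are 7 of the interleukin 17 program of T cells: the cytokines IL17A, IL17F, IL22 and IL26, the transcription factor RORA, and the receptors IL23R and CCR6. They were chosen by symbol, with earlier results of these data known, so they are not a set picked independently of the values. The gene table of the array names 13 probe sets for them alone (3 for IL17F, 2 each for IL17A, IL22, IL23R and RORA, 1 each for IL26 and CCR6), and for each gene the probe set with the highest mean over all arrays was used. All 7 were measured, among 14133 named genes, and all 7 were among the 11807 genes tested.

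T cells carrying CD3 had been purified from rhesus macaque blood and their RNA hybridised to 81 Affymetrix arrays, 34 from healthy animals without a transplant (Healthy.Control, 1 array each) and 47 from 27 animals after hematopoietic cell transplant. Of the 27, 11 had also given a healthy array, which the model treats as a separate animal. Autologous recipients, which received their own cells and no prophylaxis, gave Auto.D14 (n = 3) and Auto.D36 (n = 3). All other recipients had an allogeneic graft, and their groups are named by the agents given to prevent graft-versus-host disease: none in NoRx.F (n = 4), Siro in Siro.F (n = 4), Tac-Mtx in Tac.Mtx.D14 (n = 3), Tac.Mtx.D30 (n = 2) and Tac.Mtx.F (n = 3), and Bela in Bela.F (n = 3). Bela-Siro gave Bela.Siro.D14 (n = 3), Bela.Siro.D30 (n = 3) and Bela.Siro.F (n = 2), FR104 gave FR104.D14 (n = 3) and FR104.F (n = 3), and FR104-Siro gave FR104.Siro.D14 (n = 4) and FR104.Siro.F (n = 4). The abbreviations are not spelled out in the labels and are read here as sirolimus (Siro), which blocks mTOR, tacrolimus (Tac), which blocks calcineurin, methotrexate (Mtx) and belatacept (Bela), which shields CD80 and CD86 from CD28. FR104 is taken here to be an antibody fragment that binds CD28 itself. The suffixes D14, D30 and D36 give the nominal day. The label D30 includes 1 array from day 29, and FR104.Siro.D14 holds arrays from days 14, 14, 22 and 34. F marks the final sample of an animal, for which no day is given, so final samples of different groups may differ in time as well as in prophylaxis. Arrays of 1 animal at different times share that animal.

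The interleukin 17 program belongs to T cells that guard barrier tissues such as gut and skin. IL-23, sensed through IL23R, sustains these cells, RORA is one of their lineage transcription factors, and CCR6 draws them towards its ligand CCL20. IL-17A and IL-17F act on epithelial and stromal cells that then recruit neutrophils, IL-22 acts on epithelia, and IL-26 is a cytokine that primates have and mice lack. In the RefSeq annotation of the rhesus genome (assembly T2T-MMU8v2.0, used here only for gene names and neighbours), IL17F and IL17A are direct neighbours among protein-coding genes, IL26 lies between IFNG and IL22, and IL23R lies beside IL12RB2. After allogeneic transplant such cells are known as one of the T cell types that can take part in graft-versus-host disease.

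Values are log2 probe set signals, and a difference of 1 is a doubling. Array medians lay between 5.12 and 5.31. The 40th percentile of all values, 4.65, served as a floor, and a gene was tested if it lay above the floor in at least 2 arrays. Detection calls were not used here, so a level under the floor may be background, and a difference from it may understate the change. Of the T cell markers, CD5, CD4, CD8A and CD8B were measured, and their mean lay between 9.58 and 10.44 in healthy controls and between 9.66 and 10.05 in Bela.Siro.F; the CD3 genes themselves are among those not analysed here. Spike-in signal was above the healthy maximum in 8 transplant arrays, among them R.38 of Bela.Siro.F, R.202 of Auto.D14 and the whole of FR104.Siro.D14. The 3' minus the 5' signal of actin ran from 0.43 to 3.83 in healthy controls. It was 0.02 to 0.37 in FR104.D14, 0.09 to 0.43 in FR104.F and -0.34 to -0.30 in Auto.D36. Auto.D14, FR104.Siro.D14 and FR104.Siro.F reached down to 0.29, 0.23 and 0.06. Its part in the results was not tested. In sorted blood T cells, more cells of a type and more RNA per cell cannot be told apart.

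IL17A was near its lowest level in most groups and stood out in one. The healthy controls ran from 3.57 through a median of 3.97 to 4.22, all under the floor. The 2 Bela.Siro.F arrays measured 5.96 (animal R.38) and 5.76 (R.42), above every other array of the series. The Tac.Mtx.F arrays measured 4.28 (R.19), 5.16 (R.20) and 4.41 (R.21), all above the healthy maximum. One FR104.F array reached 5.05 (R.22), beside 3.57 (R.23) and 3.87 (R.24). NoRx.F was the lowest group, with 3.46, 3.59, 3.70 and 3.70. In the order of the 16 group means, 14 of 15 neighbouring groups overlapped, the exception being Bela.Siro.F (5.86 ± 0.14, SD, n = 2) above Tac.Mtx.F (4.61 ± 0.48, SD, n = 3).

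IL22 followed a similar order at the top. Healthy controls lay between 3.60 and 4.44 with a median of 3.91. Bela.Siro.F measured 4.78 in R.38 and 6.26 in R.42, and FR104.Siro.F, the next group, 4.71 (R.26), 4.13 (R.27), 4.56 (R.28) and 4.43 (R.29). All other group means were between 3.77 (Bela.F) and 4.19 (Bela.Siro.D30). Again 14 of 15 neighbouring groups overlapped, and Bela.Siro.F alone lay wholly above the healthy range by the probe set used.

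IL26 spread furthest of the 7 genes. Its healthy values ran from 2.66 through a median of 3.07 to 3.90. The Bela.Siro.F arrays measured 7.93 (R.38) and 4.67 (R.42), and those of FR104.Siro.F 6.43 (R.26), 6.14 (R.27), 4.44 (R.28) and 3.56 (R.29). Bela.Siro.D30 measured 5.22 (R.38), 4.53 (R.42) and 3.66 (R.49), Tac.Mtx.F 3.04 (R.19), 5.77 (R.20) and 4.46 (R.21), and FR104.F 6.04 (R.22), 3.33 (R.23) and 3.36 (R.24). High values were thus found in 5 groups, in each of them beside at least 1 lower array, and all 15 neighbouring groups overlapped. In contrast, NoRx.F (2.88 to 3.17), Siro.F (2.91 to 3.07), Bela.F (2.88 to 3.22), both autologous groups (2.88 to 3.32) and all D14 groups (2.90 to 3.40) stayed inside the healthy range.

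IL17F had another order. It was above the floor in all 81 arrays, with healthy values from 4.76 through 5.10 to 5.43. The 4 NoRx.F arrays measured 5.87 (R.50), 5.59 (R.51), 5.81 (R.52) and 5.61 (R.53), all above the healthy maximum, and NoRx.F was the one group wholly outside that range. The highest single array was of Auto.D14, 6.23 in R.202, beside 5.06 (R.200) and 5.61 (R.201). Bela.Siro.F, highest for all other members, measured 5.48 and 5.20.

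**Figure D1:**
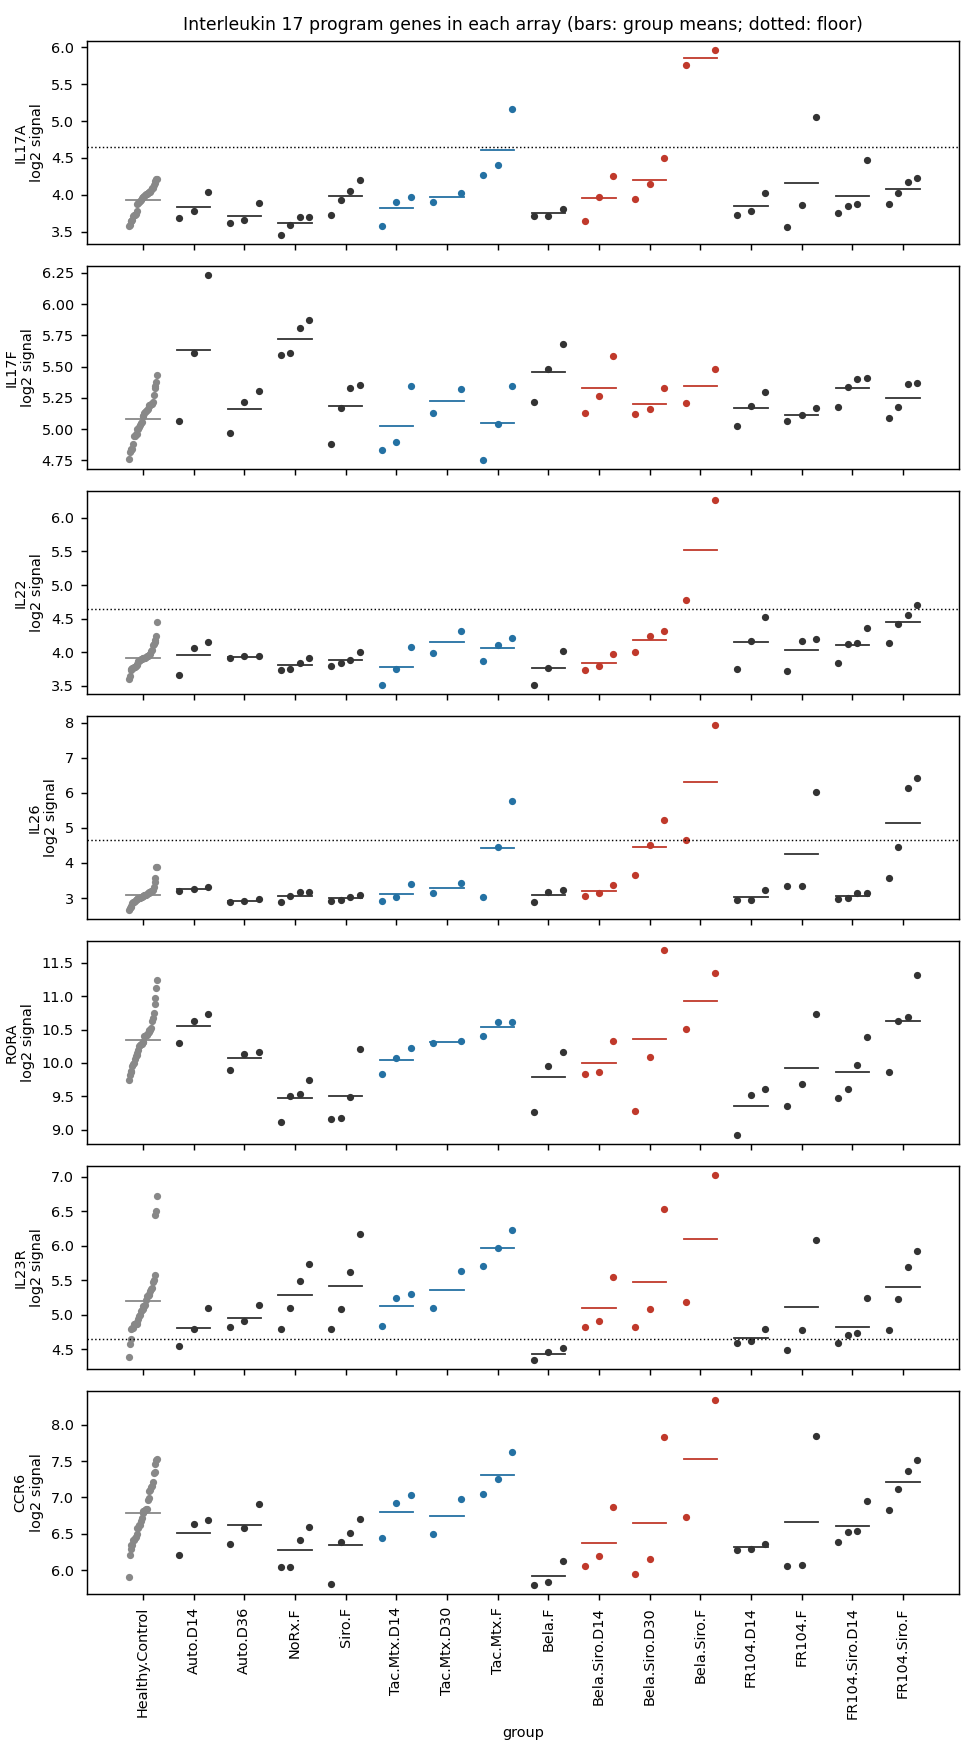
Log2 signal (vertical axes) of each of the 7 genes in every array, by group (horizontal axis). Points are arrays, bars are group means, the dotted line is the floor of 4.65, and Bela.Siro is red and Tac.Mtx blue. IL17A, IL22 and IL26 lie under the floor in all healthy controls and are highest in Bela.Siro.F, whereas IL17F is highest in NoRx.F.

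RORA was abundant throughout, with healthy values from 9.74 through 10.31 to 11.25. It was highest in Bela.Siro.F (11.35 in R.38 and 10.52 in R.42) and lowest in FR104.D14, whose 3 arrays (9.51, 8.92 and 9.61) all lay under the healthy minimum. Of 4 arrays, 3 lay under that minimum in NoRx.F (9.75, 9.53, 9.11 and 9.50) and in Siro.F (9.16, 9.48, 10.21 and 9.17). The highest single array was of Bela.Siro.D30, 11.69 in R.38, while R.49 of the same group measured 9.28. Single animals of Bela.Siro.D30 thus lay further apart in RORA than the highest and lowest of the 16 group means, which differed by 1.59.

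The receptors varied widely even without a transplant. IL23R ran from 4.39 through 5.10 to 6.71 in healthy controls and CCR6 from 5.91 through 6.80 to 7.53. In Bela.Siro.F, IL23R measured 7.02 (R.38) and 5.18 (R.42) and CCR6 8.34 and 6.73, so 1 array of each lay above the healthy range and 1 inside it. Tac.Mtx.F was second for both genes, with IL23R at 5.97, 6.22 and 5.70 and CCR6 at 7.05, 7.62 and 7.25. Bela.F was lowest for both, with IL23R at 4.34, 4.45 and 4.51 and CCR6 at 5.84, 6.13 and 5.80. No group lay wholly outside the healthy range for either gene.

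The first comparison asked how each transplant group differed from the healthy controls. One limma model fitted to all 81 arrays, with terms for group and for batch, gave the log2 differences (± SE) and 2-sided p-values adjusted by Benjamini-Hochberg over all 11807 genes within a comparison, with 0.05 as the threshold. The 15 comparisons share the 34 healthy arrays. IL17A, IL22 and IL26 lay under the floor in all healthy controls and entered the test through 4, 3 and 7 transplant arrays, so these 3 genes had to differ somewhere. For each of them, 2 of these arrays were those of Bela.Siro.F. Counts of members called in comparisons of Bela.Siro.F are therefore no separate support. Without the filter the calls of IL17A, IL22 and IL26 against healthy controls were the same.

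In Bela.Siro.F, 3 of the 7 genes were higher than in healthy controls, beside 2.84% of all genes called. IL17A was higher by 1.93 ± 0.19 (3.81-fold, adjusted p 1.62e-11), IL22 by 1.60 ± 0.18 (3.02-fold, 1.62e-09) and IL26 by 3.20 ± 0.46 (9.20-fold, 2.56e-06). By the probe sets used, both arrays of the group were above all healthy controls for each of the 3. The differences of IL23R (0.90 ± 0.39, adjusted p 0.212), CCR6 (0.74 ± 0.34, 0.263), RORA (0.58 ± 0.33, 0.405) and IL17F (0.26 ± 0.16, 0.451) did not pass, and the median of the 7 was 0.90 against 0.00 over all genes. The group has 2 arrays, and the 2 differed. Without R.38, IL26 was at 1.57 and no longer called (adjusted p 0.138), while IL17A stayed at 1.83 and IL22 at 2.34. Without R.42, IL22 was at 0.85 (0.0393), IL17A at 2.03 and IL26 at 4.84, all 3 called. With 1 array of the group left, these tests take the spread from the other groups and assume that the lone array varies like them. R.38 is also the array of this group with high spike-in signal.

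In Tac.Mtx.F, IL17A was higher by 0.68 ± 0.16 (1.61-fold, adjusted p 0.00262) and IL26 by 1.33 ± 0.39 (2.51-fold, 0.014), 2 of 7 genes beside 14.1% of all. IL17A lay above the healthy range in all 3 arrays and IL26 in 2. IL23R (0.77 ± 0.33, adjusted p 0.105) and CCR6 (0.51 ± 0.29, 0.252) did not pass. The values rested on R.20: without it IL17A was at 0.41 and IL26 at 0.66 (adjusted p 0.194 and 0.437), and neither was called. IL26 also missed the threshold without R.21.

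In FR104.Siro.F, IL26 was higher by 2.06 ± 0.39 (4.16-fold, adjusted p 0.000248) and IL22 by 0.53 ± 0.15 (1.45-fold, 0.0147), 2 of 7 beside 10.1% of all genes. IL26 was above the healthy range in 3 of 4 arrays and IL22 in 2 of 4. IL22 missed the threshold without R.26 or without R.28, with values from 0.45 to 0.64 over the arrays left out. In Bela.Siro.D30 only IL26 passed, by 1.37 ± 0.39 (adjusted p 0.0177), 1 of 7 beside 7.18% of all genes, with values from 1.00 to 1.77 and no call without R.38 or without R.42. In FR104.F no member passed (10.7% of all genes did). IL26 there was at 1.15 ± 0.43 (adjusted p 0.0686), with 1 of 3 arrays, R.22, above the healthy range, and at 0.26 without that array. It passed without R.23 or without R.24, and when each animal entered as a random block (1.23, adjusted p 0.0341).

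**Figure D2:**
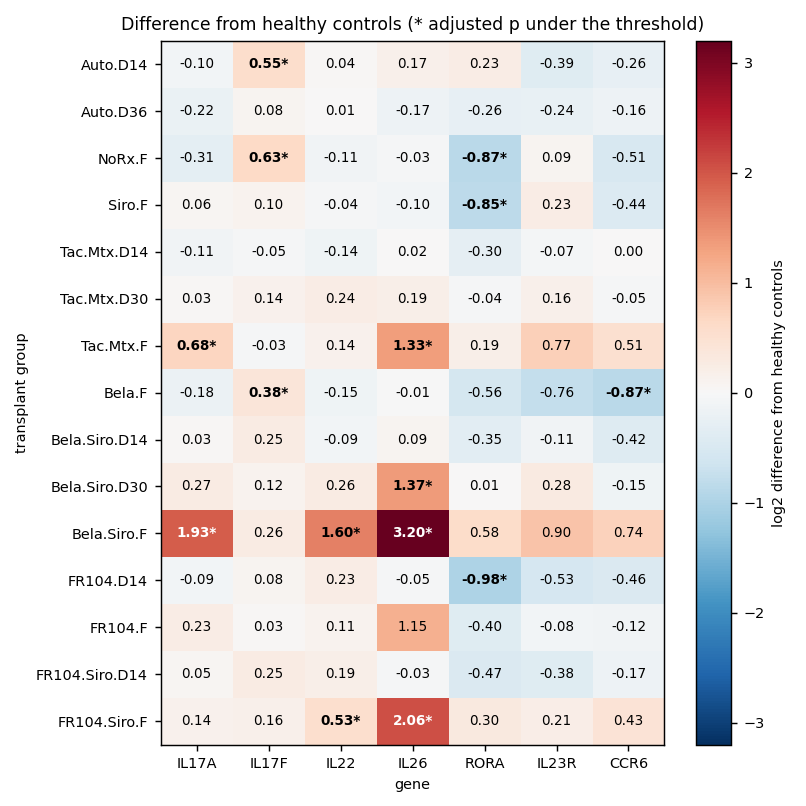
Log2 difference of each gene (columns) between a transplant group (rows) and the 34 healthy controls from the limma fit, with colour for size and direction and an asterisk for an adjusted p under the threshold. The largest difference is 3.20 for IL26 in Bela.Siro.F, followed by 2.06 for IL26 in FR104.Siro.F and 1.93 for IL17A in Bela.Siro.F, and the differences of RORA that passed are all below 0.

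In NoRx.F, IL17F was higher by 0.63 ± 0.12 (1.55-fold, adjusted p 2.25e-05) and RORA was lower by 0.87 (SE 0.26, 1.83-fold, 0.00509). These were 2 of 7 genes, beside 35.4% of all genes called in this comparison, so the share is below the background. IL17A, IL22 and IL26 were at -0.31 ± 0.15, -0.11 ± 0.14 and -0.03 ± 0.36 and did not pass. Both calls were also made with each NoRx.F array left out in turn. Within batch 1, which holds 3 of the 4 arrays, the differences were 0.66 for IL17F and -0.72 for RORA, both called, and within batch 2 they were 0.54 and -0.95 (adjusted p 0.105 and 0.172). RORA was also lower in Siro.F, at -0.85 ± 0.25 (adjusted p 0.0118, 1 of 7 beside 14.6%), and in FR104.D14, at -0.98 ± 0.31 (0.0444, 1 of 7 beside 5.39%). The first call was lost without R.13 or R.18 (-1.09 to -0.71 over the arrays left out), and the second without any 1 of its 3 arrays (-1.11 to -0.76). The difference of RORA in Siro.F was -0.34 within batch 1 (adjusted p 0.475) and -1.28 within batch 2 (0.0122). Of the Siro.F animals, R.13, R.16 and R.18 had their own healthy array, and the difference of RORA from it was -1.51, -1.77 (across batches) and -1.25. Of the NoRx.F animals R.53 had one, in the same batch, and the difference of RORA from it was only -0.24. The healthy array of R.53 measured 9.74, the healthy minimum. In R.22 of FR104.D14 the difference was -1.61.

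In Auto.D14 and Bela.F, IL17F and CCR6 were the members called. IL17F was higher by 0.55 ± 0.15 in Auto.D14 (adjusted p 0.0188, 1 of 7 beside 4.4%), and the call was lost without R.202 (0.25, adjusted p 0.575), the Auto.D14 array of high spike-in signal. In Bela.F, IL17F was higher by 0.38 ± 0.13 (adjusted p 0.0367) and CCR6 lower, at -0.87 ± 0.29 (0.0251), 2 of 7 beside 17.6%. CCR6 missed the threshold without any 1 of the 3 Bela.F arrays (-0.98 to -0.81), and IL17F without R.46 or without R.47 (0.27 to 0.50). In limma no member passed in Auto.D36 (16.7% of all genes did), Bela.Siro.D14 (2.52%), FR104.Siro.D14 (18.2%), Tac.Mtx.D14 (1.47%) or Tac.Mtx.D30 (3.46%), and none had an unadjusted p under 0.05 there, beside 1508 to 4006 of all genes. Over the 15 groups IL26 was called higher in 4, IL17F in 3, IL17A and IL22 in 2 each, RORA was called lower in 3 and CCR6 in 1, and IL23R in none.

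Genes with several probe sets allowed a second reading. For IL17F, all 3 probe sets had their highest group mean in NoRx.F, the second at 7.10, 6.35, 6.42 and 5.94 and the third at 6.63, 5.85, 6.35 and 5.54. The RORA probe sets gave nearly the same values, 11.35 and 10.55 in Bela.Siro.F by the second against 11.35 and 10.52 by the one used. The second probe set of IL22 measured 4.38 in R.38 and 7.43 in R.42 in Bela.Siro.F, and a difference from healthy controls of 2.76. The 4.38 of R.38 lay under the healthy maximum of 4.83 by that probe set. By it IL22 was also higher in Bela.Siro.D30, by 1.58 (adjusted p 0.00104; 4.91, 4.98 and 4.27 in R.38, R.42 and R.49), and in Tac.Mtx.F, by 1.19 (0.0102), where the probe set used gave no call. The second probe set of IL17A did not follow the first. It was dim, from 2.68 to 3.37 over all 81 arrays and never above the floor, and measured 2.90 and 2.94 in Bela.Siro.F, a difference from healthy controls of -0.12 (adjusted p 0.61). Every IL17A result here therefore rests on 1 probe set.

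**Figure D3:**
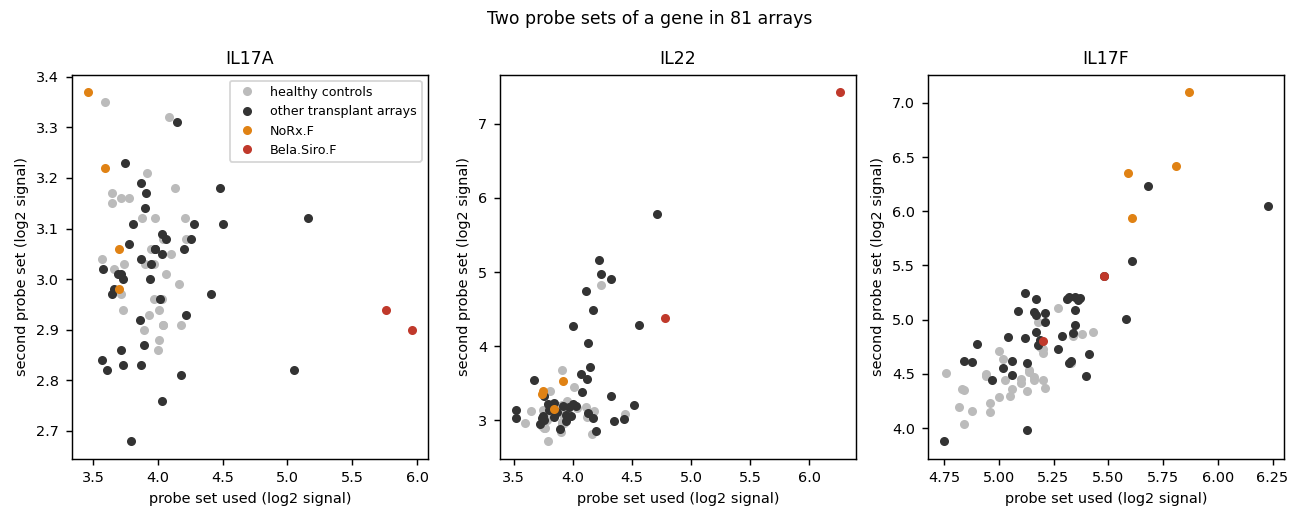
Log2 signal of the second probe set (vertical axes) against the probe set used (horizontal axes) of IL17A, IL22 and IL17F in 81 arrays, with healthy controls grey, NoRx.F orange, Bela.Siro.F red and all other transplant arrays black. Both probe sets of IL22 are highest in 1 Bela.Siro.F array and both of IL17F are high in NoRx.F, whereas the second of IL17A stays between 2.68 and 3.37.

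Array by array, the members that stood above all healthy controls came together in few arrays. Of 47 transplant arrays, 24 had no member above the healthy maximum, 15 had 1, and 8 had at least 2. Bela.Siro.F R.38 had all 7, beside 8.17% of all tested genes above their healthy maximum in that array. IL17A, IL22 and IL26 passed the filter through this array and a few others. In those arrays they had to lie above all healthy controls, which were under the floor. Such counts are therefore no separate support. By their second probe sets, IL17A (2.90) and IL22 (4.38) of R.38 were not above the healthy maxima of 3.35 and 4.83. The same animal at Bela.Siro.D30 had 4 (IL17A, IL26, RORA and CCR6, beside 6.95% of all genes). Arrays with 3 were Bela.Siro.F R.42 (IL17A, IL22 and IL26, beside 11.9%), Tac.Mtx.F R.20 and FR104.F R.22 (IL17A, IL26 and CCR6 in both, beside 16.3% and 12.9%), FR104.Siro.F R.26 (IL22, IL26 and RORA, 10.8%) and FR104.Siro.F R.28 (IL17A, IL22 and IL26, 6.78%). IL26 was among them in all 8 arrays. R.22 and R.28 also had their own healthy array, and over it IL26 was higher by 3.04 in FR104.F of R.22 and by 1.52 in FR104.Siro.F of R.28, the latter across 2 batches.

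The second comparison followed Bela-Siro and Tac-Mtx over time. In Bela.Siro, IL17A of R.38 went from 4.26 at D14 to 4.50 at D30 and 5.96 in the final sample, and of R.42 from 3.98 to 3.95 and 5.76. IL22 of R.38 went from 3.97 to 4.32 and 4.78, and of R.42 from 3.80 to 4.24 and 6.26. By its second probe set, IL22 went from 3.18 to 4.91 and 4.38 in R.38 and from 3.14 to 4.98 and 7.43 in R.42. IL26 of R.38 went from 3.36 to 5.22 and 7.93, and of R.42 from 3.05 to 4.53 and 4.67. In both animals IL26 at D30 was thus already above its D14 level, whereas IL17A stayed within 0.24 of its own. R.49, which gave no final array, measured 3.65 and 4.15 for IL17A, 3.74 and 4.00 for IL22 and 3.15 and 3.66 for IL26 at D14 and D30.

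Between D14 and the final sample of Bela.Siro, 6 of all genes (0.0508%) were called, and 3 of them were members: IL17A (1.90 ± 0.23, adjusted p 4.36e-08), IL22 (1.68 ± 0.21, 2.03e-07) and IL26 (3.11 ± 0.55, 0.001), all higher. These 3 had passed the filter in part through the final Bela.Siro arrays themselves, so their share of the calls is no separate support. The other genes called were CXCL8, a chemokine for neutrophils (1.93 ± 0.41), PCDH8, a cadherin (3.03 ± 0.35), and GCNT1, a glycosyltransferase (1.87 ± 0.41). CCR6 (1.16 ± 0.41), IL23R (1.01 ± 0.46) and RORA (0.93 ± 0.40) each had an adjusted p of 0.995. Without R.38 IL26 was at 1.48, and without R.42 IL22 was at 0.94, neither then called. With the animal as a fixed block, which leaves few degrees of freedom, 1 member was called, IL17A, and IL22 (1.61) and IL26 (2.90) each had an adjusted p of 0.931. Between D30 and the final sample 3 genes were called in all (0.0254%), CXCL8 and 2 members, IL17A (1.66 ± 0.23, adjusted p 6.2e-06) and IL22 (1.33 ± 0.21, 0.000241); IL22 missed the threshold without R.42 (0.59), and with the animal as a fixed block no member passed. Between D14 and D30, PCDH8 was the one gene called (0.00847%), and no member passed in limma, although IL26 (1.28 ± 0.49) had an unadjusted p under 0.05, 1 of 7 members beside 258 of all genes.

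In Tac.Mtx, IL17A went from 3.58 through 4.03 to 4.28 in R.19, from 3.91 through 3.90 to 5.16 in R.20, and from 3.98 at D14 to 4.41 in the final sample of R.21. IL22 went from 3.52 through 4.32 to 3.87 in R.19 and from 4.08 through 3.99 to 4.22 in R.20. In R.21 it went from 3.75 to 4.11. By its second probe set, IL22 went from 3.14 through 3.33 to 3.11 in R.19 and from 3.38 through 3.06 to 5.16 in R.20. In R.21 it went from 3.06 to 4.74 by that probe set. IL26 stayed at 3.04 from D14 to the final sample of R.19, with 3.14 between. It went from 3.40 through 3.44 to 5.77 in R.20 and from 2.90 to 4.46 in R.21. IL23R was higher in the final than in the D14 sample in all 3 animals, 5.24 and 5.97 in R.19, 5.30 and 6.22 in R.20, and 4.84 and 5.70 in R.21. Limma called 0 of all genes in each of the 3 time comparisons of Tac.Mtx (0%), with 439, 516 and 91 genes under an unadjusted p of 0.05 from D14 to D30, D14 to F and D30 to F. Of the members 0, 3 and 2 were among those, and IL17A from D14 to F was at 0.79 ± 0.20 (adjusted p 0.585).

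**Figure D4:**
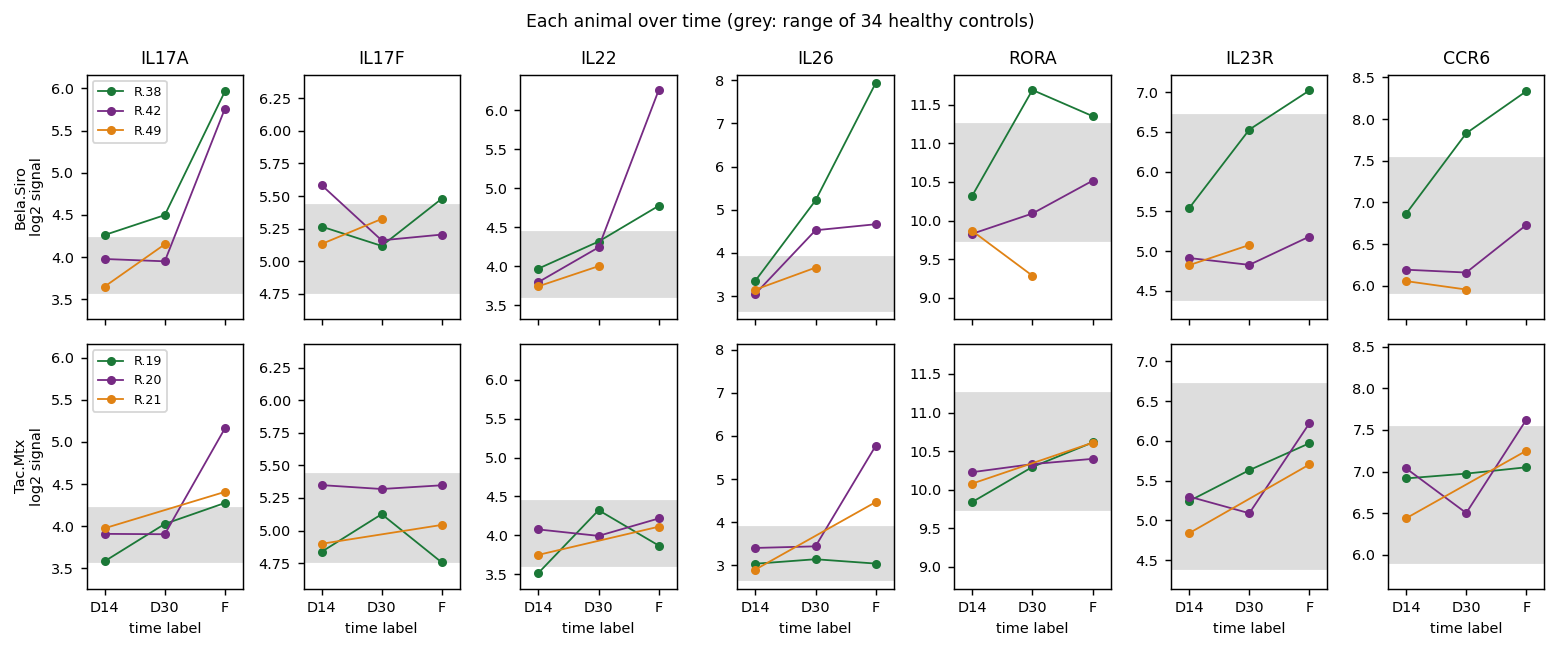
Log2 signal (vertical axes) of each gene in the animals of Bela.Siro (upper row) and Tac.Mtx (lower row) at D14, D30 and the final sample (horizontal axes). Lines join arrays of 1 animal, and grey bands are the range of the 34 healthy controls. By the probe sets used, IL17A in the final samples lies above the band in all 5 animals, and IL22 lies above it in the 2 of Bela.Siro.

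Set against each other at the same label, Bela.Siro and Tac.Mtx showed no member past the threshold in limma at D14, where FCRL3 was the one gene called (0.00847%), or at D30, where PCDH8, PTCHD1 and TP63 were (0.0254%). Of the 7 members 0 and 1 had an unadjusted p under 0.05, beside 1113 and 1144 of all 11807 genes. In the final samples 6 genes were called (0.0508%), and 2 of them were members, both higher in Bela.Siro.F: IL22 (1.45 ± 0.21, adjusted p 1.67e-05) and IL17A (1.25 ± 0.23, 0.00233). The others were PCDH8, PTCHD1 and ADM, higher in Bela.Siro.F, and KDM2B, lower there. IL26 differed by 1.88 ± 0.55 (adjusted p 0.351). IL17A missed the threshold without R.38 or without R.19 (1.08 to 1.52 over the arrays left out), and IL22 without R.42 (0.71). The test of the difference between the 2 changes from D14 to the final sample called 4 genes (0.0339%), DHRS2, PCDH8, PTCHD1 and IL22. By the probe sets used, the change of IL22 was larger in Bela.Siro by 1.40 ± 0.29 (adjusted p 0.0306). That of IL17A was larger by 1.11 ± 0.31 (adjusted p 0.992). The second probe set of IL22 gave another order of the final arrays. By it R.38 of Bela.Siro (4.38) lay under R.20 (5.16) and R.21 (4.74) of Tac.Mtx. It lay above R.19 (3.11), and R.42 of Bela.Siro was highest (7.43). The IL22 call was lost without any 1 of R.38, R.42 and R.49 at D14, R.42 at F, R.20 and R.21 at D14 and R.19 and R.21 at F, with values from 0.65 to 2.14, and within batch 3 alone (1.40, adjusted p 0.437).

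The final samples were then compared with NoRx.F, in 6 comparisons that share its 4 arrays and, apart from that with Siro.F, span different batches. In Bela.Siro.F 4 of 7 members were higher, beside 7.75% of all genes: IL17A (2.24 ± 0.24), IL22 (1.71 ± 0.23), IL26 (3.23 ± 0.58) and RORA (1.46 ± 0.42, adjusted p 0.0194). Without R.38, IL26 was at 1.60 and RORA at 1.04, neither called, and RORA was also lost without NoRx.F R.52. In FR104.Siro.F, 3 of 7 were higher beside 19.6%: IL26 (2.08 ± 0.53, adjusted p 0.00266), IL22 (0.65 ± 0.21, 0.0183) and RORA (1.17 ± 0.38, 0.0212). IL22 and RORA were lost without R.26 (0.56 to 0.76 and 0.94 to 1.43 over the arrays left out), and RORA also without NoRx.F R.52. In Tac.Mtx.F, IL17A was higher (0.99 ± 0.22, 0.00216) and IL17F lower (-0.67 ± 0.18, 0.0135), 2 of 7 beside 6.95%, the latter not without R.19. IL17F was the one member called in Siro.F (-0.53 ± 0.15, adjusted p 0.0103, beside 12.1% of all genes, and not without R.17) and in FR104.F (-0.60 ± 0.19, 0.0399, beside 7.66%, and lost without R.22, R.23 or R.24 and without NoRx.F R.50 or R.52). For Siro.F the difference was -0.65 within batch 1 (adjusted p 0.0459) and -0.35 within batch 2 (0.694). In Bela.F no member passed in limma, beside 1.86%, and none had an unadjusted p under 0.05, beside 1581 of all genes.

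Because Bela.Siro joins a pair of agents, its final samples were compared with those of each alone and with FR104.Siro.F. Against Bela.F, 4 members were higher beside 0.457% of all genes: IL17A (2.11 ± 0.23, adjusted p 9.61e-10), IL22 (1.75 ± 0.21, 5.51e-08), IL26 (3.21 ± 0.55, 0.000213) and CCR6 (1.61 ± 0.41, 0.0476). CCR6 was lost without any 1 of the 3 Bela.F arrays or R.38 (0.81 to 2.41), without the filter (adjusted p 0.0536) and when each animal entered as a random block (1.53, 0.0566), and IL26 without R.38 (1.58). Against Siro.F, which lies in other batches, IL17A (1.87 ± 0.24, 2.45e-07), IL22 (1.64 ± 0.22, 1.09e-06) and IL26 (3.30 ± 0.57, 0.000496) were 3 of 14 genes called (0.119%). IL26 was lost without R.38 (1.67) and IL22 without R.42 (0.90). Against FR104.Siro.F, IL17A (1.79 ± 0.25, adjusted p 9.58e-06) and IL22 (1.06 ± 0.23, 0.0491) were 2 of 6 genes called (0.0508%). The others, all higher, were PTX3 (3.00 ± 0.58), IL1B (2.59 ± 0.55), PCDH8 (2.26 ± 0.38) and ADM (1.13 ± 0.25). Bela.Siro.F and FR104.Siro.F lie in batches 3 and 4. The comparison therefore rests on a batch adjustment already in the deposited values, of unknown method, as well as on the batch term. IL26 was at 1.15 ± 0.60 (0.999). The call of IL22 was lost without R.42 (0.32), without R.27, R.28 or R.29, and when each animal entered as a random block (1.03, adjusted p 0.124). Between FR104.Siro.F and FR104.F, PCDH8 was the one gene called (0.00847%), and no member passed in limma, with 2 of 7 under an unadjusted p of 0.05 beside 876 of all 11807 genes.

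The 12 animals of Bela.Siro, Tac.Mtx, FR104 and FR104.Siro with a D14 and a final array were then pooled. Their changes from the first to the final array were examined with an exact sign-flip test, 2-sided, which was added after the data were seen. IL26 was higher in the final array in 12 of 12 animals, by 1.84 ± 1.42 on average (SD, n = 12). Its exact p was 0.000488, the smallest this test can give, and 0.0296 after Benjamini-Hochberg over all genes, of which 5.12% were called. IL26 had passed the filter through 2 arrays each of Bela.Siro.F and FR104.Siro.F and 1 each of FR104.F, Tac.Mtx.F and Bela.Siro.D30. All its first arrays were under the floor, so the filter partly fixed a rise to the final array in advance. The changes of IL26 were 4.6 and 1.6 in R.38 and R.42 of Bela.Siro, 2.8, 0.40 and 0.41 in R.22, R.23 and R.24 of FR104, and 3.3, 3.2, 1.3 and 0.56 in R.26 to R.29 of FR104.Siro. In Tac.Mtx they were 2.4 and 1.6 in R.20 and R.21, and only 0.004 in R.19. After quantile normalization IL26 was higher in 11 of 12 animals, by 1.87 (exact p 0.000977, adjusted 0.0313). RORA and IL23R were higher in 10 of 12 animals each, by 0.66 ± 0.60 and 0.66 ± 0.61 (exact p 0.00586 and adjusted p 0.0693 for both), and CCR6 in 9 of 12, by 0.58 ± 0.62 (exact p 0.0083, adjusted p 0.082). IL17A was higher in 10 of 12, by 0.60 ± 0.77 (exact p 0.0234, adjusted 0.132), IL22 in 9 of 12, by 0.43 ± 0.74 (exact p 0.0312, adjusted 0.151), and IL17F in 4 of 12 (-0.05 ± 0.16, exact p 0.323). By the second probe sets IL17A was at -0.11 and higher in 2 of 12 animals (exact p 0.0317), IL22 at 1.20 and higher in 8 of 12 (0.00781), and IL17F at 0.17 and higher in 9 of 12 (0.172), so the directions of IL17A and IL17F depended on the probe set. With only the 10 animals whose first array was from day 14, IL26 was higher in 10 of 10, by 1.83 (exact p 0.00195, adjusted 0.0756), and without Bela.Siro in 10 of 10, by 1.59 (exact p 0.00195, adjusted 0.0766). In both of these smaller sets no gene of the series reached the threshold.

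**Figure D5:**
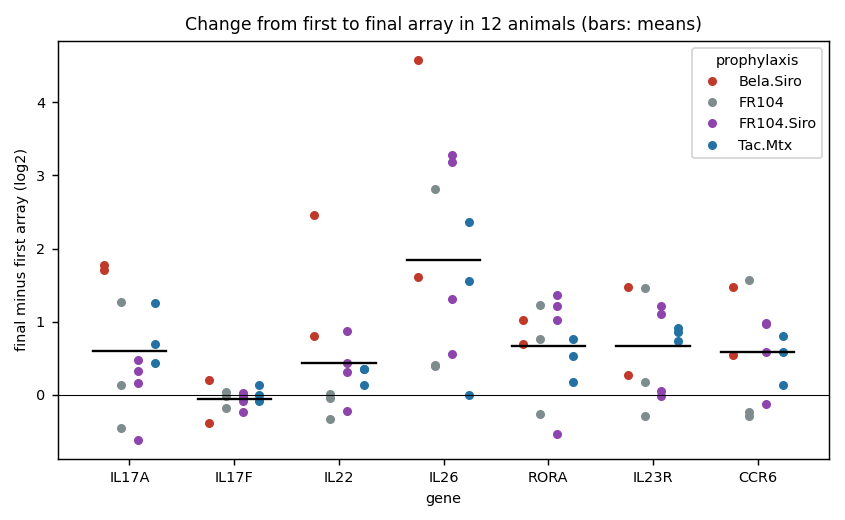
Change from the first to the final array (log2, vertical axis) of each gene (horizontal axis) in 12 animals, coloured by prophylaxis, with bars for the means. All points of IL26 are at or above 0, with a mean of 1.84, whereas those of IL17F lie on both sides of 0.

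Whether the members vary together without a transplant was asked of the 34 healthy controls, over 21 pairs. Only IL23R and CCR6 passed, with Pearson's r of 0.68 (permutation p 1e-05, the smallest that 100000 resamples can give; adjusted over the 21 pairs 0.00021) and Spearman's rho of 0.64 (permutation p 0.00012, adjusted 0.00252). The r was 0.67 after centring within batch, 0.84, 0.56 and 0.77 within batches 2, 3 and 4 (n = 10, 13 and 6), and 0.68 without the 2 arrays farthest from the median of IL23R. IL26 and CCR6 had an r of 0.47 (permutation p 0.00484, adjusted 0.0508) and 0.52, 0.69 and 0.03 within the same batches. IL17A and IL26 had an r of 0.07 (permutation p 0.705, adjusted 0.867), and both were under the floor in all these animals. The deposited values had been made alike between batches before deposit, so the batches say little here about a batch effect.

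Over all 81 arrays, which share groups and animals, Pearson's r among the members is a description. It was 0.69 between IL17A and IL26, 0.65 between IL17A and IL22, 0.75 between IL23R and CCR6 and 0.64 between RORA and CCR6. IL17F stood apart, with r from -0.21 to 0.08 against each other member. The genes outside the list with the highest r over the 81 arrays were MATN2, an extracellular matrix protein (0.84 with IL26 and 0.63 with IL17A), NMU, a neuropeptide (0.76 and 0.61), and CHN1, a Rac GTPase-activating protein (0.74 and 0.58). For IL22 they were CXCL8 (0.65), ADM, which encodes adrenomedullin (0.57), and PCDH8 (0.57). RORA was most like NTN4 (0.76), ADAM12 (0.75) and CD68 (0.67), IL23R most like CD68 (0.72), MATN2 (0.71) and RYR2 (0.70), and CCR6 most like CD68 (0.78), PAK3 (0.77) and CCR4 (0.74). IL17F was most like NDUFB4 (0.65), SERF2 (0.64) and MRPL52 (0.63), genes of the respiratory chain, of protein aggregation and of the mitochondrial ribosome. MATN2 measured 8.05 in R.38 and 4.74 in R.42 of Bela.Siro.F, against 3.41 to 5.83 in healthy controls. Its high value in R.38, where IL26 was highest, is part of the r by which it was picked and no separate support. In R.42 MATN2 was inside the healthy range, whereas IL26 (4.67) was above it.

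Few other genes of the program passed in Bela.Siro.F or Tac.Mtx.F, where 2.84% and 14.1% of all genes were called against healthy controls. Of 9 transcription factors measured, BATF3 (0.58 ± 0.17, adjusted p 0.0489) and VDR, the vitamin D receptor (1.79 ± 0.39, 0.00379), were higher in Bela.Siro.F than in healthy controls, and none was lower. BATF3 measured 7.13 in R.42 but 6.37 in R.38, under the healthy maximum of 6.58. VDR was above the healthy maximum of 4.41 in both (5.82 in R.38 and 5.40 in R.42). In Tac.Mtx.F the 2 that passed were BATF (0.84 ± 0.22, 0.0062) and VDR (1.21 ± 0.33, 0.00951). The same list had 4 higher and 2 lower in NoRx.F, 4 and 1 in Bela.F and 4 and 1 in FR104.F, and the differences of VDR there were 2.60 ± 0.31, 2.63 ± 0.33 and 2.15 ± 0.37. STAT3, which carries the IL-23 signal, was at 0.79 ± 0.46 (adjusted p 0.42) in Bela.Siro.F and 0.33 ± 0.39 (0.643) in Tac.Mtx.F. KLRB1 was not analysed here. Of 6 receptors for polarising cytokines, none passed in Bela.Siro.F, and IL12RB1, the subunit that IL23R pairs with, passed in Tac.Mtx.F (0.45 ± 0.15, 0.03) with TGFBR2 (0.36 ± 0.12, 0.0287).

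Of 8 further cytokines and ligands, only CXCL8 passed in Bela.Siro.F (2.08 ± 0.34, adjusted p 5.32e-05), and it measured 8.46 in R.42 but 4.78 in R.38, inside the healthy range of 4.14 to 5.69. CCL20, the ligand of CCR6, was at 0.54 ± 0.20 (adjusted p 0.128). Of 9 surface receptors and enzymes none passed there, and DPP4 did in Tac.Mtx.F (0.97 ± 0.30, 0.0194). No receptor or adaptor of interleukins 17, 22 and 26 passed in either group (7 tested). Of 9 genes that restrain the program, SOCS3, an inhibitor of STAT3, was higher (1.24 ± 0.31, 0.0136) and TBX21, the factor of type 1 T cells, lower (-1.80 ± 0.53, 0.0434) in Bela.Siro.F. Both were outside the healthy range in R.42 only. SOCS3 measured 6.41 in R.42 and 4.68 in R.38, against a healthy maximum of 4.75. TBX21 measured 7.62 in R.42 and 8.97 in R.38, against a healthy minimum of 8.55. In Tac.Mtx.F TBX21 was at -0.12 ± 0.44 and no gene of that list passed. FOXP3, the factor of regulatory T cells, was at -0.17 ± 0.19 and 0.02 ± 0.16. IFNG, the neighbour of IL26, was higher in Tac.Mtx.F (1.88 ± 0.53, adjusted p 0.0115) and at 1.72 ± 0.63 (0.122) in Bela.Siro.F, and its values of 8.48 in R.19 and 7.86 in R.20 do not follow those of IL26 in the same arrays (3.04 and 5.77). In the whole lists the medians in Bela.Siro.F ranged from -0.03 to 0.61, against 0.00 over all genes.

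Markers of other cells differed from healthy controls beside these results. Of 8 measured monocyte and myeloid markers, 3 were higher in Bela.Siro.F (S100A9 by 5.32 ± 1.06, S100A8 by 4.98 ± 1.02 and VCAN by 3.24 ± 0.92) and 2 in Tac.Mtx.F. The mean of the 8 lay between 5.01 and 8.14 in healthy controls, between 7.39 and 10.25 in Bela.Siro.F, between 6.53 and 8.51 in Tac.Mtx.F and between 6.65 and 9.04 in NoRx.F. The 2 Bela.Siro.F arrays differed here as well. In R.42, with the highest IL22 and CXCL8, LYZ measured 12.42 and CD14 8.99, above the healthy maxima of 10.35 and 8.08, whereas in R.38, with the highest IL26, they measured 7.12 and 6.42, inside the healthy range. Other markers of the list were above all healthy controls in R.38 too: S100A8 at 10.13 (healthy maximum 9.06), S100A9 at 9.53 (8.51) and CD68 at 8.61 (8.24). With the mean of the myeloid markers as a covariate, an alternative added after the data were seen, the differences in Bela.Siro.F were 1.84 for IL17A, 1.45 for IL22 and 3.19 for IL26, all still called. The same covariate ended the calls of IL26 in Bela.Siro.D30 (1.36, adjusted p 0.121), of IL17F and CCR6 in Bela.F (0.27 and -0.74), of RORA in FR104.D14 (-0.89) and, between groups, of IL22 in the difference of changes (1.35, 0.0535) and against FR104.Siro.F (0.99, 0.16).

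The mucosal-associated invariant T cell is another cell that carries RORA, IL23R and CCR6. Of its 5 measured markers none passed in Bela.Siro.F and 2 were higher in Tac.Mtx.F, SLC4A10 (1.62 ± 0.45, adjusted p 0.011) and DPP4. SLC4A10 measured 8.98 in R.38 and 6.81 in R.42 of Bela.Siro.F, 9.02 in R.38 at D30, 9.61 in R.26 of FR104.Siro.F, 8.65 in R.20 of Tac.Mtx.F and 8.32 in R.22 of FR104.F, against 4.67 to 7.45 in healthy controls. SLC4A10 was singled out after its values were seen, and R.19 of Tac.Mtx.F measured 8.08 with IL26 at 3.04. ZBTB16, another marker of the list, did not follow it: it measured 5.18 in R.20 of Tac.Mtx.F and 5.73 in R.22 of FR104.F, under the healthy minimum of 5.88, and 6.53 in R.26 of FR104.Siro.F and 8.08 in R.38 of Bela.Siro.F, inside the healthy range. Of 2 gamma delta T cell markers tested, BLK was higher in Tac.Mtx.F (0.51 ± 0.16, 0.0253) and none passed in Bela.Siro.F. Of 5 markers of group 3 innate lymphoid cells, TNFSF4 was higher in both (1.01 ± 0.28 and 0.98 ± 0.24) and KIT lower in Tac.Mtx.F (-1.43 ± 0.48). AHSP, a red cell marker, and TREML1, a platelet marker, were higher in Tac.Mtx.F by 1.12 ± 0.39 and 1.01 ± 0.35. No measured marker of NK cells, B cells or neutrophils passed in Bela.Siro.F or Tac.Mtx.F. The part of these other cells, apart from the myeloid covariate above, was not tested.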

How the data were processed

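The authors summarised probe sets to log2 signals by RMA in affy and deposited these, per the submitters' processing notes, with no versions given. RNA was labelled by the Affymetrix 3' IVT Plus protocol, per the labels. Among healthy controls an F test between the 4 batches gave a p above 0.95 for 62% of genes, so the deposited log2 values carry a batch adjustment whose method is not given in the sources used here, and their spread may be understated. Of 52865 probe sets, 24969 have 1 gene, 361 several and 27535 none in the gene table used here.

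The members and lists were chosen with earlier results of these data known. Computed here: limma 3.58.1 (R 4.3.3) with a term for each group and batch and 62 residual degrees of freedom, eBayes with a trend and Benjamini-Hochberg adjustment, over 35 comparisons; duplicateCorrelation used statmod 1.5.0. The code was tested on simulated data. Named genes are all members, and of each list up to 4 genes in each direction with the smallest adjusted p, plus STAT3, KLRB1, CCL20, IL12RB1, TBX21, IFNG and FOXP3 where measured; the most similar genes are the 3 with the highest r for each member. Other genes were named where at most 6 were called (CXCL8, PCDH8, GCNT1, FCRL3, PTCHD1, TP63, DHRS2, ADM, KDM2B, IL1B, PTX3), and SLC4A10, LYZ, CD14 and MATN2 in single arrays after their values were seen. Animal numbers in Bela.Siro and Tac.Mtx mark the same animal, per the labels, and arrays of 1 animal deviated together (correlation of deviations from group means 0.24 to 0.66 and 0.08 to 0.52). Alternatives were the batch term, filter, probe set, normalization, animal block, trend, samples fitted, spike-in signal, batches alone and each transplant array left out. Nothing says that RNA was extracted separately beyond the animal, and the number of arrays limits the precision.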

Additional observations from a re-analysis of the deposited data

Results flagged for a closer look

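In 28 sets of 4 arrays (7 genes in 4 groups) the array farthest from the others was examined by the gap to its nearest neighbour over the range of the group, where chance gives about 1 in 20. One stood apart: IL17A in FR104.Siro.D14 measured 4.48 in R.29 against 3.75 to 3.87 in the other 3, a gap of 0.831 of the range. That array was from day 22, and it is 1 of the 8 arrays of high spike-in signal.

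By the probe set used, the change of IL22 from D14 to the final sample differed between prophylaxes. It was larger in Bela.Siro than in Tac.Mtx by 1.40 in the test of the difference itself (limma, adjusted p 0.0306). By the second probe set, IL22 also rose in R.20 (3.38 to 5.16) and R.21 (3.06 to 4.74) of Tac.Mtx, but not in R.19 (3.14 to 3.11). The difference of 1.40 rests on the IL22 value of 6.26 in R.42, the array with the highest CXCL8 (8.46) and LYZ (12.42) of Bela.Siro.F. Without that array it was 0.65 and not called.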

How the results depend on the processing

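The counts of the 7 members called kept within 1.5 times in all settings and comparisons but the following, single arrays left out aside. Without the batch term they were 1 in FR104.F against healthy controls and 5, 2 and 6 in Tac.Mtx.F, FR104.F and FR104.Siro.F against NoRx.F. With only the groups compared and healthy controls fitted they were 1 in FR104.F, 4 and 5 in Tac.Mtx.F and FR104.Siro.F against NoRx.F, 1 in Bela.Siro.F against FR104.Siro.F and 0 for the difference of changes between Bela.Siro and Tac.Mtx. With the animal as a random replicate block (correlation 0.194) they were 1 in FR104.F and 1 in Bela.Siro.F against FR104.Siro.F, where eBayes without a trend also gave 1. With the animal as a fixed replicate block, the paired fit, they were 1 and 0 from D14 and D30 to the final sample of Bela.Siro, and it changed no call of Tac.Mtx. With the mean of all probe sets they were 2 in Bela.Siro.D30, 1 in Bela.Siro.F against Bela.Siro.D30, Tac.Mtx.F and FR104.Siro.F each, and 0 for the difference of changes. The count in FR104.D14 was 0 without the filter, after quantile normalization, within batch 4, without arrays of high spike-in signal and with the myeloid covariate. After quantile normalization it was 1 in Bela.F and 0 in FR104.F against NoRx.F. Within 1 batch it was 0 in Auto.D14 (batch 4), 1 in Bela.F (batch 3), 0 in NoRx.F and 0 in Siro.F against NoRx.F (batch 2), and 0 for the difference of changes (batch 3). Without arrays of high spike-in signal it was 0 in Auto.D14, 1 in Bela.Siro.F against Tac.Mtx.F and 2 against NoRx.F and Bela.F, and IL26 in Bela.Siro.F was then at 1.57 (adjusted p 0.11). With the myeloid covariate it was 0 in Bela.F, Bela.Siro.D30 and the difference of changes, and 1 in Bela.Siro.F against FR104.Siro.F. The causes were not tested.

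Leaving out 1 array gave counts from 0 to 1 in Auto.D14, Bela.F, Bela.Siro.D30, FR104.F and Siro.F, 0 in FR104.D14, 0 to 2 in Tac.Mtx.F, 1 to 2 in FR104.Siro.F and 2 to 3 in Bela.Siro.F against healthy controls. Bela.Siro.F had 2 to 3 against Bela.Siro.D14, Bela.Siro.D30 and Siro.F, 2 to 5 against Bela.F and NoRx.F, and 1 to 2 against FR104.Siro.F and Tac.Mtx.F. The difference of changes had 0 to 1, and against NoRx.F the counts were 0 to 1 in Siro.F and FR104.F and 1 to 3 in FR104.Siro.F.

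The second probe set of IL17A turned its direction in Bela.Siro.F, to -0.12 against healthy controls, -0.12 against Bela.Siro.D14, -0.23 against Bela.Siro.D30, -0.15 against Tac.Mtx.F, -0.23 against NoRx.F, -0.08 against Bela.F and -0.11 against Siro.F, and to -0.08 in Tac.Mtx.F against NoRx.F. No other called result turned. Uncalled differences near 0 took either sign.

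Groups of 2 to 4 arrays, undated final samples, and levels of IL17A, IL22 and IL26 under the floor in healthy controls limit these results. Some comparisons are of groups that share no batch (every final group but Siro.F against NoRx.F, and Bela.Siro.F against Siro.F or FR104.Siro.F). They rest on the batch adjustment already in the deposited values, whose method is not given, as well as on the batch term.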
